A study of Arabidopsis thaliana with 12 samples.

Results

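RNA polymerase V was removed from Arabidopsis thaliana seedlings by a mutation in NRPE1, the gene of its catalytic subunit, and the mRNA of these nrpe1 seedlings was compared with that of the wild type (WT). The comparison took the 3 nrpe1 and the 3 WT libraries of the 12 libraries in the series, and every gene and transposable element (TE) of the deposited table entered it. WT was the Columbia (Col) ecotype and the mutant carried the allele nrpe1-11, a single line, so that the effect of the allele and that of anything else in this line cannot be told apart. Seedlings of both genotypes grew on plates for 2 weeks at 22 degrees with 12 h of light a day and had no further treatment. The series also holds 3 libraries each of nrpd1 (allele nrpd1-3, without polymerase IV) and pkl (allele pkl-1, without the chromatin remodeler PICKLE), whose levels are given only beside those of nrpe1 but which also entered the filter and the estimate of the spread behind every test.

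Polymerase V is a polymerase of plants that works in RNA-directed DNA methylation. Polymerase IV starts the pathway by making the precursors of small interfering RNAs. Polymerase V transcribes the target locus itself, and Argonaute proteins loaded with these small RNAs bind its transcripts there and bring the methyltransferase DRM2. The pathway is known for keeping young or short TEs and repeats near genes methylated and silent.

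Levels are given in RPKM, the reads of a feature scaled by its length and by the total reads of the library. The reads behind them, recovered from the steps between the values, summed to 15242073 to 19416098 in the WT libraries and to 16580757, 7204299 and 18265459 in nrpe1 replicates 1, 2 and 3. Reads over TEs made up 0.0284% to 0.0405% of the WT libraries and 0.0401% to 0.0594% of the nrpe1 libraries. Replicate 2 of nrpe1 was the shallowest library and had 0.906% of its reads on mitochondrial genes, against 0.0333% to 0.135% in the other 5 libraries. The table holds 64791 features. Of its 33602 genes and 31189 TEs, 22704 and 965 reached 0.1 RPKM in at least 3 of the 12 libraries and were tested with limma. A feature was called at an adjusted p under 0.05 and a change of at least 2-fold. Called were 0.435% of the features tested (103 of 23669), and 947 features had an unadjusted p under 0.05.

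Leaf markers were abundant in both genotypes, with a summed level of the 4 markers of 27138 to 40430 RPKM in WT and 27248 to 39087 RPKM in nrpe1. The 8 root markers summed to 1341 to 1712 RPKM in WT and 1152 to 1519 RPKM in nrpe1. Seed markers were close to 0 in all 6 libraries (at most 0.322 RPKM summed over 5 genes), with the cruciferin gene CRC at 0 reads. The 5 flower markers summed to 3.05 to 4.96 RPKM in WT and 4.79 to 8.21 RPKM in nrpe1. None of the tested members of the 4 marker lists passed the adjusted threshold, beside 0.444% of all features tested. Lists this short can hardly show a change by such a count, and their part in the results was not tested. In whole seedlings, fewer cells of a type and less RNA per cell cannot be told apart.

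The mutated gene itself was measured first. NRPE1 (AT2G40030, TAIR10.1 chromosome 2, 16714460 to 16723718, plus strand) stood at 1.77, 1.42 and 2.30 RPKM in WT and at 0.874, 0.394 and 0.655 RPKM in nrpe1. The libraries of the 2 genotypes did not overlap, and nrpe1 kept some transcript. The log2 fold change was -1.41 (SE 0.29), which did not pass the threshold (adjusted p = 0.117, limma) but did so with the replicate number as a block (adjusted p = 0.00765). Leaving out 1 library at a time gave adjusted p-values from 0.0689 to 0.466.

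In the absence of polymerase V, 41 genes were higher (0.181% of the genes tested) and 18 were lower (0.0793%). Of the TEs, 42 were higher (4.35% of the TEs tested) and 2 were lower (0.207%). In all 103 called features the 3 nrpe1 libraries lay beyond the 3 WT libraries. Of the features tested, it was so for 1543 of 22704 genes and 119 of 965 TEs. The calls were made on the same libraries, which favors such a separation. The higher genes were often near silence in the wild type: their median level rose from 0.219 RPKM in WT to 7.26 RPKM in nrpe1. At most 3 reads in each WT library were found for 21 of the 41, beside 1079 of the 22704 genes tested. The lower genes were expressed in WT, with a median level of 6.53 RPKM against 1.51 RPKM in nrpe1. Median levels of all genes tested were 8.21 RPKM in WT and 8.37 RPKM in nrpe1. Without the nrpe1 libraries 2 higher genes and 4 higher TEs would not have passed the filter, so these could be tested only because they were high there. The libraries left for that count include those of nrpd1. In all, 9 higher genes and 32 higher TEs had no WT read, so they passed the filter only through mutant libraries. The same held for 125 of all genes and 203 of all TEs tested. With the replicate block the number of lower genes was 31, among them all 18 called without it. Without WT replicate 2 it was 11. When the 6 nrpe1 and WT libraries were fitted alone, 29 of the 41 higher and 9 of the 18 lower genes, 26 of the 42 higher TEs and 0 of the 2 lower TEs kept their call.

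**Figure D1:**
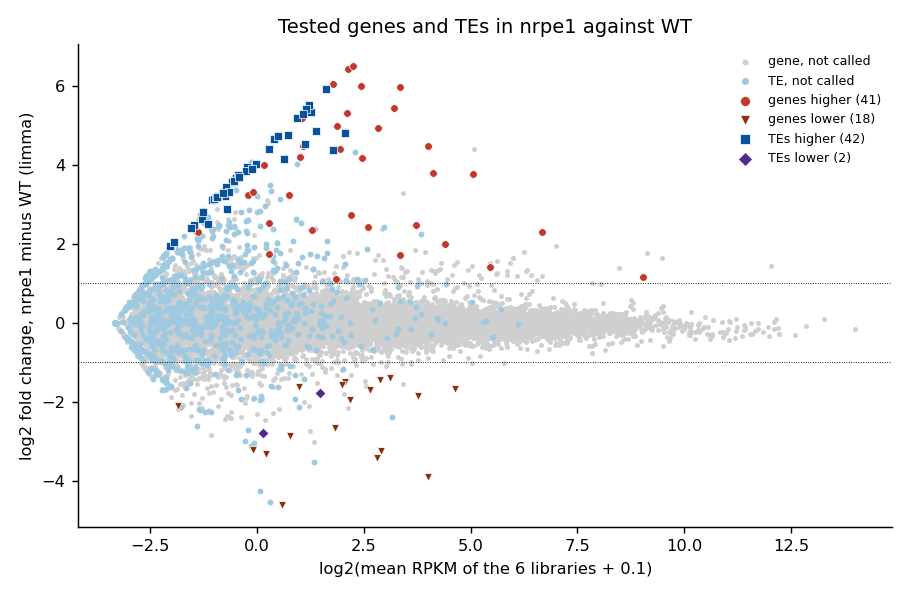
Log2 fold change (nrpe1 minus WT) of each tested gene and TE against its level, the log2 of the mean RPKM of the 6 libraries plus 0.1. Colored symbols are the called features, 41 and 18 genes and 42 and 2 TEs, and dotted lines mark a 2-fold change. The higher TEs lie along the upper left edge, where the WT libraries had no or hardly any reads.

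SDC, an F-box gene that is silenced by methylation of tandem repeats before its start, is annotated on chromosome 2 (AT2G17690, 7682162 to 7684083, plus strand). To see whether other called genes have such repeats, the 1000 bases before the start of each gene were searched for tandem repeats in the TAIR10.1 genome. A repeat needed a period of 15 to 120 bases and at least 2.5 copies in which 90% of the bases equalled the base 1 period on, and was extended as far as such windows followed each other. One was found before 6 of the 41 higher genes (14.6%) and 3 of the 18 lower genes (16.7%), and before 1.07% of the 22515 tested genes with a position. The 6 include SDC itself, whose repeats were known beforehand, so its hit adds nothing to the share. The 9 repeats are printed here 5′ to 3′ on the strand of their gene, with every other period in capitals so that the periods can be compared. The first 6 lie before higher genes.
SDC: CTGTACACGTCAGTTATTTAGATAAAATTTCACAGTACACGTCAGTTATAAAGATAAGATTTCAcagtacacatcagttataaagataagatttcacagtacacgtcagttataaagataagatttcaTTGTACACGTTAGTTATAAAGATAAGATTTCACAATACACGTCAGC
PUM9: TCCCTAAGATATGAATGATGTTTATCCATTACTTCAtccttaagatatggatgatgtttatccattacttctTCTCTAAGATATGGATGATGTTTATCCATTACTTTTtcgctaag
KELP: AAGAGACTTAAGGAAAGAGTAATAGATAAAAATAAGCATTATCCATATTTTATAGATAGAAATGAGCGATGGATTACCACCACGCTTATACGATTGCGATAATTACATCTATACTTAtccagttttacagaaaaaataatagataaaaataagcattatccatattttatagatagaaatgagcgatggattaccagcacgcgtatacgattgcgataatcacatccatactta
AT1G34440: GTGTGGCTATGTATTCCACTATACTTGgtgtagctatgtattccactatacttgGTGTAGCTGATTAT
AT5G35207: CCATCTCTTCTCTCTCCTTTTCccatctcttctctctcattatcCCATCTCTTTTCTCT
AT1G60110: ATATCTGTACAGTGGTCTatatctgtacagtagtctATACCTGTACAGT
AT1G58590: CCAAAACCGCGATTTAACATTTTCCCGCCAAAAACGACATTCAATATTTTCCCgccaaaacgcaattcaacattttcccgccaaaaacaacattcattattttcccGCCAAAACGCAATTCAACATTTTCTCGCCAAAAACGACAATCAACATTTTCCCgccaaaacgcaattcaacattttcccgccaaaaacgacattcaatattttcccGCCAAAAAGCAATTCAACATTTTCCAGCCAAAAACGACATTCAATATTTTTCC
CYP702A5: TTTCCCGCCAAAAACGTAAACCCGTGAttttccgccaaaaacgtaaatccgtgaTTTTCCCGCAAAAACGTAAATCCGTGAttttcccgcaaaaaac
AT4G00130: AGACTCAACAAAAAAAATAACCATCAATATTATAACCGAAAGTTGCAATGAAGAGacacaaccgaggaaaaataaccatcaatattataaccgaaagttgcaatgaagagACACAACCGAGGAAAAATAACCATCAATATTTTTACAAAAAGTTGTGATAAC

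The repeat of SDC (chr2:7681916-7682089, plus strand) ended 73 bases before the annotated start and had 2.7 copies of 64 bases. Each of these copies is itself made of shorter similar units, as the printed letters show, so the units outnumber the copies. The search kept the longest repeat, and its period can be a multiple of a shorter unit. Before KELP, which encodes a transcriptional coactivator of the PC4 family, 7.1 copies of 117 bases filled 829 bases, of which the first 234 are printed (chr4:6699982-6700215, minus strand). Before PUM9, a gene of the Pumilio family of RNA-binding proteins, 3.2 copies of 36 bases lay at 936 to 821 bases from the start (chr1:13230752-13230867, minus strand). The other 3 higher genes had short repeats with periods of 27 bases (AT1G34440, chr1:12593714-12593781, minus strand), 22 bases (AT5G35207, chr5:13472716-13472774, minus strand) and 18 bases (AT1G60110, chr1:22167513-22167561, plus strand). None of these 3 contained a CG, while the whole array of KELP held 31 and that of SDC 5.

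Among the lower genes, AT1G58590, a noncoding RNA, had 6.7 copies of 53 bases upstream, of which the first 265 bases are printed (chr1:21744592-21744856, minus strand). As in SDC, each of these copies is made of shorter similar units. CYP702A5, a cytochrome P450 gene, had 3.6 copies of 27 bases (chr4:8803271-8803367, plus strand), and AT4G00130 had 2.9 copies of 55 bases (chr4:47193-47354, plus strand). The longest run that any pair of the 9 printed repeats shares, on either strand, is the 16 letters CGTTTTTGGCGGGAAA of AT1G58590 and CYP702A5. Counted on both strands of the 1000 bases upstream, these letters occurred 2 times before AT1G58590 and 5 times before CYP702A5. They occurred before none of the other called genes and before 0.098% of all genes with a position (22 of 22515). The run was picked because AT1G58590 and CYP702A5 share it, so its rarity before other genes is no test. The search was added after the values were known. A match is a run of letters and no measure of binding.

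In the RNA, the genes behind these repeats changed by different amounts. SDC had 0.0791, 0.0935 and 0.0367 RPKM in WT and 1.25, 1.48 and 2.11 RPKM in nrpe1, that is 2, 2 and 1 reads against 29, 15 and 54. The groups lay far apart (log2 fold change 3.32, SE 0.29, limma adjusted p = 0.000185), and the ratio of read rates was 24.5 (95% exact conditional interval 10.2 to 77.3, counting error only). KELP rose from a level that was already high. It went from 33.7, 36.6 and 30.9 RPKM in WT to 133, 154 and 224 RPKM in nrpe1 (log2 fold change 2.30, SE 0.22, limma adjusted p = 0.000415). PUM9 had 1, 0 and 2 reads in WT and 40, 33 and 58 in nrpe1 (log2 fold change 3.98, SE 0.46, limma adjusted p = 0.00173). AT1G58590 fell from 5.12, 5.72 and 7.12 RPKM to 2.40, 1.38 and 2.45 RPKM, and its call (adjusted p = 0.0369, limma) was lost whichever of the 6 libraries was left out (adjusted p from 0.0608 to 0.205). SDC, KELP and PUM9 each overlap another annotated gene on the other strand, and the use of strand in counting is not stated. KELP, PUM9 and AT1G58590 were described because of the repeats found after their values were known.

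Repeated sequence was common around the called genes in other forms as well. Of the 1000 bases upstream, at least 50% belonged to 25-base words that occur more than once in the genome for 4 of 41 higher genes (9.76%) and 4 of 18 lower genes (22.2%), against 1.85% of the genes tested. Any repeated word was present upstream of 39 higher genes (95.1%) and 14 lower genes (77.8%), against 43.6%. Pseudogenes made up 8 of the 41 higher genes (19.5%) and 2 of the 18 lower genes (11.1%), against 1.21% of the genes tested. Gene-poor regions, with fewer than 150 coding genes within 500 kb on either side, held 12 higher genes (29.3%) and 4 lower genes (22.2%), against 3.54%. These shares are descriptions of the called genes, without a test.

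**Figure D2:**
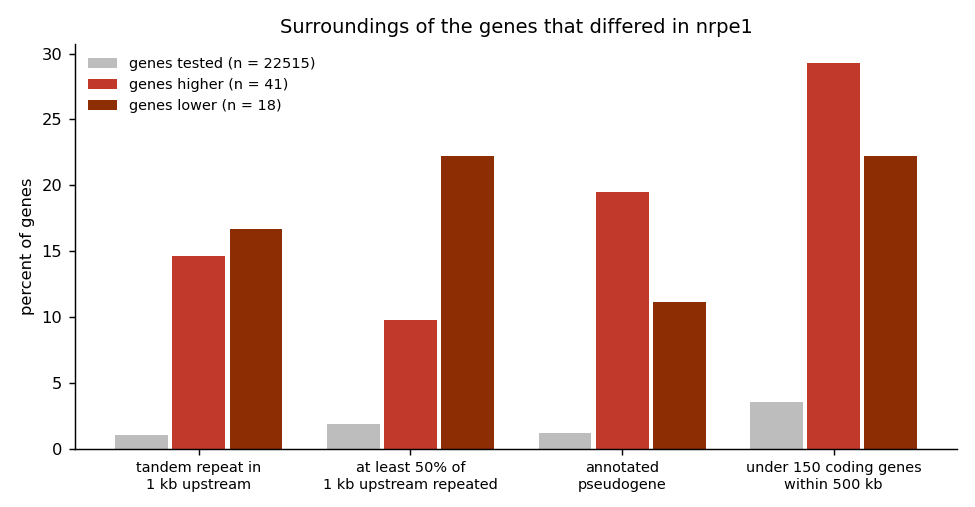
Percent of the 22515 tested genes with a position, of the 41 higher and of the 18 lower genes that have a tandem repeat in the 1 kb upstream, at least 50% repeated sequence there, a pseudogene annotation, or fewer than 150 coding genes within 500 kb. Both called groups stand above the tested genes in each property, with 14.6% and 16.7% against 1.07% for the tandem repeats. The 14.6% includes SDC, whose repeats were known before the search.

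The 12 genes with the largest rise had log2 fold changes between 4.48 and 6.50. At the top was AT4G03156, annotated as a small GTPase-like protein (chromosome 4, 1396002 to 1396784, minus strand), with 0 reads in all WT libraries and 6.44, 9.49 and 11.7 RPKM in nrpe1 (25, 16 and 50 reads). Its level was at least 12.5-fold higher than the floor of 3 reads per WT library (log2 fold change 6.50, SE 0.27, limma adjusted p = 1.25e-06). The pseudogene AT3G32240 (chromosome 3, 13209736 to 13212216, plus strand) also went from 0 reads in WT to 390, 146 and 364 reads in nrpe1. It was at least 123-fold higher (log2 fold change 6.43, SE 0.23, limma adjusted p = 4.78e-07). For AT4G03156, 87.2% of the gene has a copy of at least 95% identity elsewhere in the genome, so that the source of its reads is uncertain. No such copy was found for AT3G32240. Both genes had reads in the nrpe1 libraries only and passed the filter through them. The equal values of all other libraries lowered their SE and p.

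A pair of neighbors on chromosome 1 rose together. AT1G33850, of the ribosomal protein S19 family (12287913 to 12288210, minus strand), had no read in WT and 30, 8 and 24 reads in nrpe1 (log2 fold change 6.04, SE 0.35, limma adjusted p = 8.91e-06). AT1G33840, which encodes a LURP-one-like protein (12283725 to 12285371, minus strand), rose from 0.721, 0.379 and 0.0743 RPKM to 19.8, 14.2 and 19.8 RPKM (log2 fold change 5.44, SE 0.48, limma adjusted p = 0.000185). Both genes are 2541 bases apart with no annotated gene between them. Nearly all of AT1G33850 (99.0%) has a close copy elsewhere, and AT1G33840 has none.

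Among the rest of the 12, AT5G41830, which encodes an RNI-like protein with leucine-rich repeats (chromosome 5, 16743636 to 16745519, minus strand), rose from 0.0399, 0.0471 and 0.111 RPKM to 9.62, 8.08 and 13.9 RPKM (log2 fold change 5.99, SE 0.28, limma adjusted p = 2.29e-06). AT5G24240 is annotated as a phosphatidylinositol 4-kinase gamma-like gene and overlaps another gene on the other strand. It had a low but steady level in WT, with 0.42, 0.358 and 0.281 RPKM, and 13.3, 12.7 and 15 RPKM in nrpe1, a 38.7-fold rise (adjusted p = 5.02e-05, limma). AT1G59930 is a short gene of the MADS-box family of transcription factors (chromosome 1, 22060924 to 22061516, minus strand). It rose from 0.139, 0.164 and 0.258 RPKM to 7.71, 6.96 and 9.19 RPKM (log2 fold change 4.82, SE 0.57, limma adjusted p = 0.00203).

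The uncharacterized genes AT3G28899, AT3G29639 and AT3G33528 rose with log2 fold changes of 5.97, 5.32 and 4.99, from at most 3 reads in each WT library. Close copies elsewhere in the genome cover 48.9% of AT3G33528 and 12.8% of AT3G29639, and AT3G28899 overlaps another gene on the other strand. AT1G34440 and AT3G48131 had few reads, 15, 13 and 52 and 5, 5 and 10 in nrpe1. The call of AT1G34440 (adjusted p = 0.00979, limma) held only without nrpe1 replicate 1 when libraries were left out in turn (adjusted p from 0.0169 to 0.0638). That of AT3G48131 (adjusted p = 0.0119, limma) was lost without WT replicates 1 or 2 and without nrpe1 replicates 2 or 3 (adjusted p up to 0.0800). AT3G48131 overlaps the pseudogene RSU1 on the same strand by 120 bases, and RSU1 was itself higher (1.26, 1.11 and 1.16 RPKM against 15.7, 32.9 and 43.9 RPKM, limma adjusted p = 0.0119), so that reads of the pair cannot be told apart. The call of RSU1 held without nrpe1 replicate 1 and was lost without any 1 of the other 5 libraries (up to 0.0752).

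**Figure D3:**
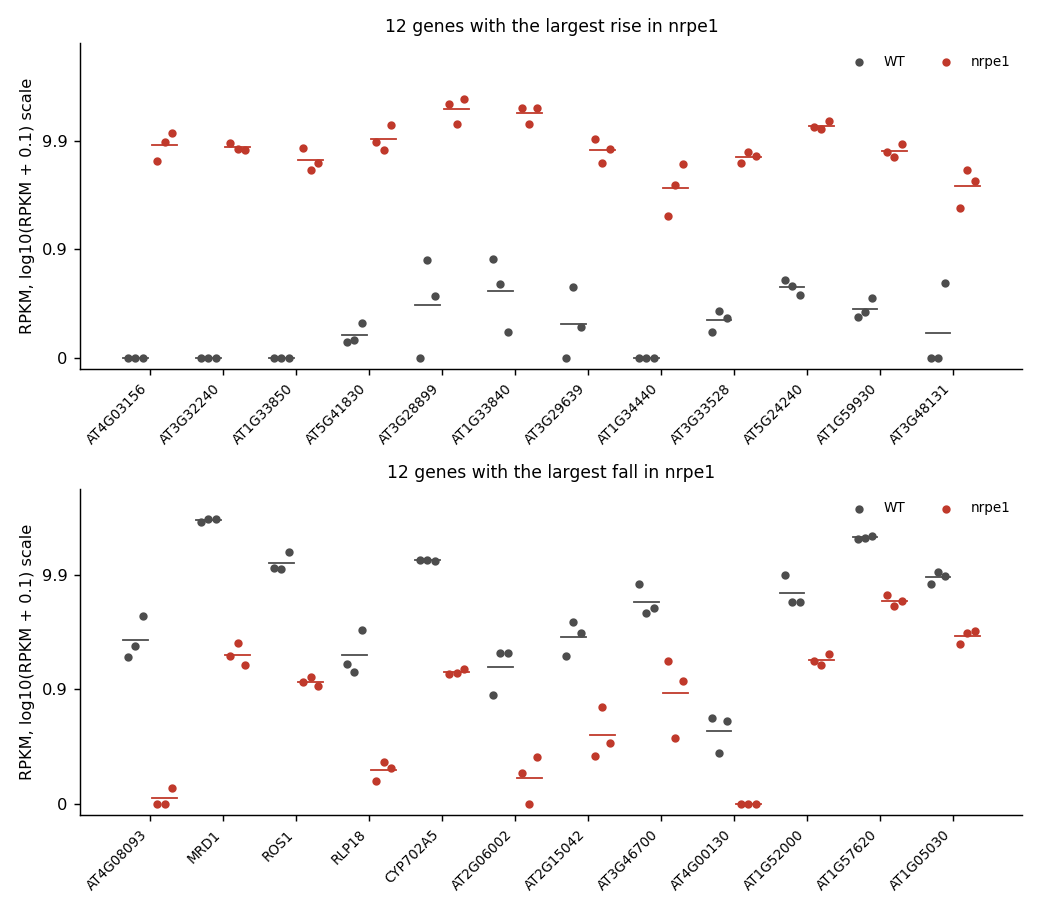
RPKM in each of the 3 WT and 3 nrpe1 libraries, on a log10(RPKM + 0.1) scale, for the 12 genes with the largest rise (top) and the 12 with the largest fall (bottom). Points are libraries and lines are means on the plotted scale. In every gene the 3 nrpe1 libraries lie on one side of the 3 WT libraries, which was a condition for being plotted.

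Several of the less extreme rises were in genes that the wild type used. ESM1, which takes part in the breakdown of glucosinolates, had 343, 372 and 260 RPKM in WT and 753, 618 and 804 RPKM in nrpe1, 2.23 times as much (adjusted p = 0.0190, limma). MBP1, a myrosinase-binding protein of the same chemical defence, had 4.86, 5 and 3.98 RPKM in WT and 15.7, 13.5 and 17.1 RPKM in nrpe1 (adjusted p = 0.0197, limma). Neither call was firm, since that of MBP1 did not survive the removal of any library (adjusted p from 0.0626 to 0.121) and that of ESM1 without WT replicates 1 or 3 and without nrpe1 replicates 1 or 3 (up to 0.104). AT5G52070, which encodes a protein with an Agenet domain, rose 5.73-fold from 4.09, 3.69 and 3.88 RPKM to 19.3, 26.0 and 21.5 RPKM (adjusted p = 8.91e-06, limma) and was called in all 16 alternative fits. AT5G52070 overlaps AT5G07875 on the same strand, so that the source of its reads is uncertain. ESM1, MBP1 and AT5G52070 were picked after their values were seen.

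The remaining higher genes, described after their values were seen, were again mostly of low level in WT. MYB3R2, of the family of 3-repeat MYB transcription factors, had no read in WT and 12, 3 and 9 reads in nrpe1 (limma adjusted p = 0.00569). The terpenoid cyclase family gene AT3G32030 rose from 0.765, 1.05 and 1.45 RPKM to 11.3, 5.97 and 6.36 RPKM (limma adjusted p = 0.000786), but 88.5% of it has a close copy elsewhere in the genome. AT3G29635, of a family of acyltransferases, rose from 0.242, 0.191 and 0.224 RPKM to 2.85, 2.42 and 3.5 RPKM (limma adjusted p = 2.79e-05). AT4G16540, which is annotated in the family of small heat shock proteins and overlaps another gene, had 3.81, 6.1 and 2.65 RPKM in WT and a wide spread of 27.2, 65.1 and 94.3 RPKM in nrpe1. Among noncoding RNAs, AT2G01422 rose from 1.05, 4.13 and 2.33 RPKM to 33.2, 24.1 and 39.1 RPKM (limma adjusted p = 0.00106).

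Of 3 loci that the study named because they were derepressed in its mutants, AT1G60110, a gene of the mannose-binding lectin superfamily (chromosome 1, 22168424 to 22170803, plus strand), had 64, 46 and 55 reads in WT and 361, 92 and 360 in nrpe1 (log2 fold change 2.43, SE 0.25, limma adjusted p = 0.000699). The TE AT2TE82000 had 4, 1 and 0 reads in WT and 71, 13 and 49 in nrpe1 (log2 fold change 4.81, SE 0.60, limma adjusted p = 0.00290). AT1TE42205 had 0, 1 and 4 reads in WT and 19, 13 and 52 in nrpe1. Its call (log2 fold change 4.38, SE 0.65, limma adjusted p = 0.0103) was lost without WT replicate 2 and without nrpe1 replicates 2 or 3 (adjusted p up to 0.0647). These loci were chosen by the study on this material and are no independent evidence.

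Fewer genes were lower without polymerase V. ROS1 (AT2G36490, on the minus strand of chromosome 2 at 15307907 to 15314807) acts against methylation, since its product excises methylated cytosine from DNA. It stood at 11.2, 11.1 and 15.6 RPKM in WT and at 1.05, 1.18 and 0.976 RPKM in nrpe1, where 82, 40 and 84 reads were left. The fall (log2 fold change -3.43, SE 0.21, limma adjusted p = 1.39e-05) left 8.45% of the WT level and was called in all 16 alternatives. Its relatives DME, DML2 and DML3, the other 3 demethylase genes, did not pass the test, with log2 fold changes of 0.31, 0.25 and -0.04.

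Another large fall was that of MRD1 (chromosome 1, 19963047 to 19964712, minus strand), a gene named for its response to methionine over-accumulation. It had 29.0, 30.3 and 30.7 RPKM in WT and 1.83, 2.44 and 1.53 RPKM in nrpe1 (log2 fold change -3.91, SE 0.17, limma adjusted p = 1.26e-06), a 15.5-fold fall. HEI10, which acts in meiotic crossover formation, overlaps MRD1 by 1446 bases on the other strand and was lower too, with 2.39, 3.12 and 3.06 RPKM against 0.777, 0.863 and 0.924 RPKM. The call of HEI10 (adjusted p = 0.00766, limma) was lost without WT replicate 2 (adjusted p = 0.0536). Since the use of strand in counting is not stated, reads of the overlapping pair cannot be told apart.

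A second pair of neighbors fell on chromosome 2. The pseudogene RLP18 (AT2G15040, 6507402 to 6509319, plus strand), a receptor-like protein locus, had 29, 21 and 65 reads in WT and 1, 1 and 2 in nrpe1 (log2 fold change -3.33, SE 0.46, limma adjusted p = 0.00569). The leucine-rich repeat gene AT2G15042, 1521 bases further on, had 62, 107 and 109 reads in WT and 5, 8 and 8 in nrpe1 (log2 fold change -2.86, SE 0.41, limma adjusted p = 0.00817). The latter call was lost without WT replicates 2 or 3 or without nrpe1 replicate 3 (adjusted p up to 0.0558). Within 5 kb of each other the called genes formed 4 pairs, and in all 4 both genes moved the same way. In 2 of the 4 pairs the genes overlap, so that their shared direction may come from the same reads.

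The remaining large falls were of mixed kinds. AT4G08093, a transcribed pseudogene (chromosome 4, 4990153 to 4991601, plus strand), had 48, 51 and 120 reads in WT and 0, 0 and 1 in nrpe1 (log2 fold change -4.61, SE 0.32, limma adjusted p = 2.81e-05), the largest fall of all. CYP702A5 had nearly the same level in each WT library, 13.4, 13.4 and 13 RPKM, and in each nrpe1 library, 1.26, 1.28 and 1.41 RPKM (log2 fold change -3.24, SE 0.22, limma adjusted p = 2.58e-05). The noncoding RNA AT2G06002 went from 10, 21 and 27 reads to 1, 0 and 2 (log2 fold change -3.21, SE 0.44, limma adjusted p = 0.00610).

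Some genes of smaller change were expressed in both genotypes. AT1G57620, of the p24 family of secretory cargo proteins, went from 20.5, 21.0 and 21.9 RPKM to 6.49, 5.25 and 5.78 RPKM (adjusted p = 2.40e-05, limma). AT1G05030, a transporter of the major facilitator superfamily, went from 8.15, 10.5 and 9.73 RPKM to 2.37, 2.96 and 3.14 RPKM (adjusted p = 0.000511, limma), and the lectin gene AT1G52000 was 4.14-fold lower (adjusted p = 0.00424, limma). AT3G46700, a glycosyltransferase gene, was called at an adjusted p of 0.0441 and lost its call without any 1 of the WT libraries or without nrpe1 replicate 3 (adjusted p up to 0.233). AT4G00130, in contrast, had 6, 2 and 6 reads in WT and 0 in all nrpe1 libraries, too few for a fold, and lost its call without WT replicates 1 or 3 (adjusted p up to 0.0786).

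Other falls were described after their values were seen. AT5G11330, an FAD/NAD(P)-binding oxidoreductase family gene, had 33.5, 39.6 and 39.6 RPKM in WT and 10.7, 11.9 and 12.1 RPKM in nrpe1 (log2 fold change -1.69, SE 0.13, limma adjusted p = 5.02e-05) and was called in all 16 alternatives. AT1G62630, annotated as a disease resistance protein of the CC-NBS-LRR class, had 7.25, 5.33 and 4.9 RPKM in WT and 2.45, 1.66 and 1.61 RPKM in nrpe1 (limma adjusted p = 0.0163). The call of AT1G62630 was lost in 4 of 6 fits with a library left out (adjusted p up to 0.0958).

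CYP708A2 encodes the thalianol hydroxylase of a root triterpene pathway. It had 10.3, 9.69 and 11.7 RPKM in WT and 4.77, 3.02 and 3.84 RPKM in nrpe1 (adjusted p = 0.0181, limma). The call held without nrpe1 replicate 1 and was lost without any 1 of the other 5 libraries (adjusted p up to 0.112).

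Among the features tested, transposable elements were the class with the largest share of calls. That share depends on which TEs the filter let in. The 42 higher TEs together took 9, 12 and 14 reads in the WT libraries and 1326, 791 and 1928 in the nrpe1 libraries, from 0.5 to 0.787 RPM in WT to 80.0, 110 and 106 RPM in nrpe1, where RPM are reads scaled by the library total and not by length. They made up 18.5% to 19.9% of the TE reads of the nrpe1 libraries and at most 0.214% of those of WT. Of the 42, 32 had no read in any WT library, and 35 to 38 were at 0 in a single WT library, while none was at 0 in any nrpe1 library. These sums describe TEs that were chosen by this contrast.

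The recovered lengths of these TEs, which are the shortest that give whole reads, ran from 132 to 8285 bases. Of them, 8 lay between 1100 and 1400 bases (19.0%, against 3.01% of the TEs tested) and 4 between 7700 and 8400 bases (9.52%, against 0.518%). Both ranges were not set before these lengths were known, which favors such an excess, so the shares are a description without a test. By the chromosome number in their names, 5, 9, 12, 9 and 7 of the 42 lie on chromosomes 1 to 5, which hold 211, 161, 195, 162 and 236 of the TEs tested. In 3 cases TEs with consecutive names were both higher: AT2TE23665 and AT2TE23670, AT2TE78935 and AT2TE78940, and AT5TE26805 and AT5TE26810. TE families and positions were not analysed here.

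The 4 longest elements had many reads. AT1TE44720, with a recovered length of 8285 bases, had 0 reads in WT and 97, 84 and 195 in nrpe1, at least 54.4-fold more (log2 fold change 3.57, SE 0.32, limma adjusted p = 0.000202). The other long elements were AT2TE07550 (97, 68 and 150 reads, at least 45.4-fold higher) and AT3TE66175 (86, 53 and 141 reads, at least 39.1-fold higher), both with 0 reads in WT, and AT4TE27915 (112, 73 and 144 reads against 1, 4 and 1). All 4 were below the 12 TEs named by the size of their log2 fold change, because a long element has a low RPKM for its reads, and they were picked after their values were seen.

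The largest log2 fold change of a TE was that of AT4TE12760 (5.91, SE 0.66, limma adjusted p = 0.00122), from 0 reads in WT to 24, 8 and 25 in nrpe1. Of the elements of about 1.2 kb, AT2TE69490 had 86, 44 and 100 reads in nrpe1 (at least 32.4-fold higher), AT3TE76405 had 58, 31 and 97 (at least 25.3-fold) and AT5TE25535 had 45, 23 and 75 (at least 19.3-fold), all from 0 in WT. AT1TE58825 had 1 read in the WT libraries together and 70, 48 and 115 in nrpe1. The adjusted p-values of these 4 lay between 2.34e-06 and 2.27e-05 (limma), and each was called in all 16 alternatives.

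The shorter elements among the 12 rested on fewer reads. AT4TE40115 had 15, 5 and 21 reads in nrpe1, AT3TE72000 had 15, 2 and 25 and AT4TE44410 had 8, 3 and 10, all from 0 in WT, and AT5TE00870 had 12, 5 and 18 against 1 read in WT. AT4TE06990 had 39, 4 and 27 reads against 0, 0 and 2, and its call (adjusted p = 0.0108, limma) was lost without WT replicates 1 or 2 or without nrpe1 replicates 1 or 3 (adjusted p up to 0.0675).

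The 2 lower TEs had moderate levels in WT. AT2TE26610 fell from 53, 58 and 85 reads to 2, 4 and 9, to 10.5% of the WT level (log2 fold change -2.79, SE 0.35, limma adjusted p = 0.00332). AT2TE22815 fell from 42, 24 and 30 reads to 10, 5 and 5 (log2 fold change -1.78, SE 0.32, limma adjusted p = 0.0446), and was called only without nrpe1 replicate 2 when libraries were left out in turn (adjusted p from 0.0430 to 0.237).

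**Figure D4:**
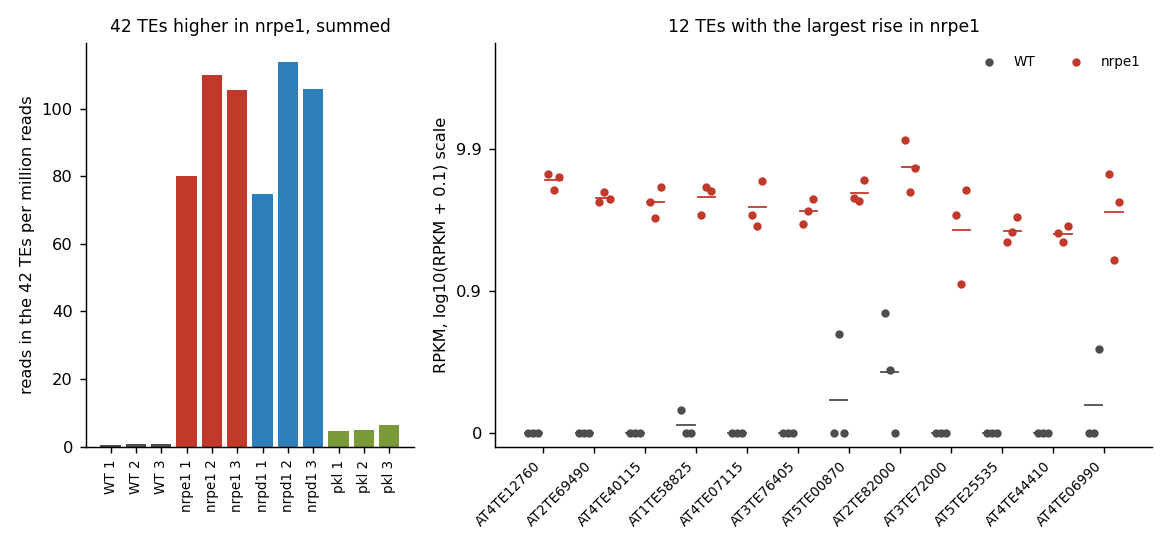
Left: summed RPM of the 42 TEs that were higher in nrpe1, for each of the 12 libraries, from 0.5 to 0.787 in WT, 80.0 to 110 in nrpe1, 74.7 to 114 in nrpd1 and 4.63 to 6.45 in pkl. Right: RPKM per library on a log10(RPKM + 0.1) scale for the 12 TEs with the largest rise, where points are libraries and lines means on the plotted scale, and 8 of the 12 are at 0 in all 3 WT libraries.

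Genes of the DNA methylation machinery gave no call. Of 47 genes in 5 lists for polymerase IV and small RNAs, polymerase V and its recruitment, Argonautes and later steps, maintenance and other methylation genes, 46 were tested, and 0 passed the adjusted threshold, against 0.444% of all features (limma). At an unadjusted p under 0.05 there were 6 of 46 (13%), beside 4.0% of all features. The 6 include NRPE1, the gene mutated in these plants, whose fall adds nothing to the share. Their median log2 fold change was 0.16, beside 0.01 for all features. In the polymerase IV list all 6 genes had positive values, from 0.19 (DTF1) to 0.72 (CLSY1, which works with polymerase IV at its target sites). In the list of polymerase V genes NRPE1 was the lowest and KTF1, an elongation factor that binds Argonaute, the highest with 0.41.

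Among genes known to be silenced by DNA methylation SDC alone passed of the 4 tested out of 7. The other tested ones, MEA, BNS and EPF2, had log2 fold changes of 0.09, 0.06 and 0.01. FWA, a homeobox gene silenced by repeats in its promoter, was at 0 RPKM in all WT libraries and at most 0.0246 RPKM in nrpe1, and QQS had no read in the 6 libraries. Lists of 10 clock genes, 12 defence genes and 11 cold and osmotic stress genes had no member past the threshold in either direction. Over all features 0.444% passed, so a count of 0 in lists this short says little about them. Their median log2 fold changes were 0.04, 0.29 and -0.21. For some clock genes replicate 1 lay far from the other replicates in both genotypes. CCA1 had 12.6, 1.82 and 1.58 RPKM in WT and 15.1, 0.829 and 0.584 RPKM in nrpe1. TOC1 had 21.5, 70.4 and 80.1 RPKM in WT and 23.9, 80.8 and 73.6 RPKM in nrpe1. This widened the spread behind their test (SE 1.48 and 0.69), which could hardly call them. With the replicate block no member of these lists was called either. The defence gene PR1 had the largest value of these lists, 1.47 (SE 1.24), with WT libraries at 8.55, 17.8 and 11.7 RPKM and nrpe1 libraries at 33.6, 21.6 and 53.2 RPKM.

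Polymerases IV and V act in the same pathway, so the called features were also compared directly between nrpe1 and nrpd1, in the same model. Among the higher genes 9 of 41 differed between the mutants, and 5 of 42 higher TEs did, each with more transcript in nrpe1. Over all features 0.613% were called in this comparison, with 0.533% of all genes and 0.518% of all TEs higher in nrpe1 than in nrpd1 and 0.0573% of genes and 0.622% of TEs lower. Among the lower genes 5 of 18 differed, 1 of them with more transcript in nrpe1, and none of the lower TEs did. The features had been selected as higher or lower in the same nrpe1 libraries, which favors such a difference and its direction, so the counts are read as a description. Over all genes, the count of those higher in nrpe1 than in nrpd1 was 121 and fell to 59 without nrpe1 replicate 2 and to 64 without nrpe1 replicate 3, and that of lower genes fell from 13 to 6 without nrpe1 replicate 2. Without nrpe1 replicate 1 they were 80 and 8. Comparisons of either mutant with WT share the WT libraries, so only the levels are given side by side.

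The 42 higher TEs as a sum had 74.7, 114 and 106 RPM in nrpd1 and 4.63, 5.08 and 6.45 in pkl, beside 80.0, 110 and 106 in nrpe1. At the level of single features the difference could be complete. AT4G03156 and AT3G32240 had 0 reads in all 3 nrpd1, all 3 pkl and all 3 WT libraries (nrpe1 minus nrpd1 on the log2 scale 6.50, SE 0.27, adjusted p = 1.25e-06, and 6.43, SE 0.23, limma adjusted p = 4.78e-07). AT4TE07115 likewise had 14, 5 and 27 reads in nrpe1 and none in the other 9 libraries (5.28, SE 0.31, limma adjusted p = 1.99e-05). AT3TE54005 followed the same pattern, with 44, 20 and 26 reads in nrpe1 alone (3.20, SE 0.31, limma adjusted p = 0.000956), and was picked after its values were seen. All of these single features passed the filter only through the nrpe1 libraries, so they could be tested only because they were high there.

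Some genes with a clear WT level also differed. AT5G52070 had 8.28, 8.25 and 8.43 RPKM in nrpd1, beside 19.3, 26.0 and 21.5 RPKM in nrpe1 (1.40 more in nrpe1 on the log2 scale, SE 0.14, limma adjusted p = 0.00123). AT3G47030, an F-box gene, had 2.11, 1.85 and 1.34 RPKM in nrpe1, 0.189, 0.332 and 0.37 RPKM in nrpd1 and 0.467, 0.414 and 0.469 RPKM in WT (2.24 more in nrpe1 than in nrpd1, limma adjusted p = 0.0017). The noncoding RNA AT1G67105 had 61.4, 45 and 83.4 RPKM in nrpe1, 13.7, 13.3 and 13.2 RPKM in nrpd1 and 17.7, 24.2 and 29 RPKM in WT (2.18, limma adjusted p = 0.000956). In both genes the 3 nrpd1 libraries lay below the 3 WT libraries and the 3 nrpe1 libraries above them. AT1G62630 had 7.86, 5.42 and 4.34 RPKM in nrpd1 and was lower in nrpe1 (-1.56, limma adjusted p = 0.0161). These 4 genes were picked after their values were seen.

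Other features had reads in nrpd1 as well, but fewer than in nrpe1. AT5G41830 had 1.2, 1.84 and 1.07 RPKM in nrpd1 (2.85 more in nrpe1 on the log2 scale, SE 0.28, limma adjusted p = 0.000956) and AT3G33528 had 0.917, 1.48 and 1.26 RPKM (2.45, SE 0.26, limma adjusted p = 0.00131). AT1G59930 had 1.35, 0.712 and 0.241 RPKM (3.44, SE 0.57, limma adjusted p = 0.0216), a difference that was lost without any 1 of the nrpe1 libraries (adjusted p up to 0.116). AT4TE06990 had 0, 1 and 0 reads in nrpd1 (4.76, SE 0.67, limma adjusted p = 0.00784) and lost its call without nrpe1 replicate 3 (adjusted p = 0.0501). AT4TE44410 had 2, 3 and 5 reads (1.51, SE 0.29, limma adjusted p = 0.0468) and lost the call with the replicate block (adjusted p = 0.0543) and with any 1 of the 6 nrpe1 and WT libraries left out (up to 0.222).

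Among the lower genes, MRD1 had 25.3, 34.0 and 29.3 RPKM in nrpd1, overlapping the WT range, and was lower in nrpe1 than in nrpd1 by a log2 difference of -3.88 (SE 0.17, limma adjusted p = 1.38e-06). HEI10, its overlapping neighbor, had 1.84, 2.40 and 3.50 RPKM in nrpd1 (-1.45, SE 0.23, limma adjusted p = 0.0165). AT2G06002 had 8, 13 and 16 reads in nrpd1 (-2.48, SE 0.44, limma adjusted p = 0.0324), a call lost without WT replicates 2 or 3 or nrpe1 replicates 1 or 2 (adjusted p up to 0.141), with a pseudocount of 0.01 (0.109) or 1 (0.402), with the filter at 1 RPKM (0.0508) and with voom (0.205). ROS1 went the other way: it had 5, 1 and 1 reads in nrpd1, so that nrpe1, with 82, 40 and 84, kept more (3.23, SE 0.21, limma adjusted p = 4.91e-05). NRPE1 itself was lower in nrpe1 than in nrpd1 (-1.71, SE 0.29, limma adjusted p = 0.0263), but not past the threshold without nrpe1 replicate 2 or 3 (adjusted p up to 0.107).

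**Figure D5:**
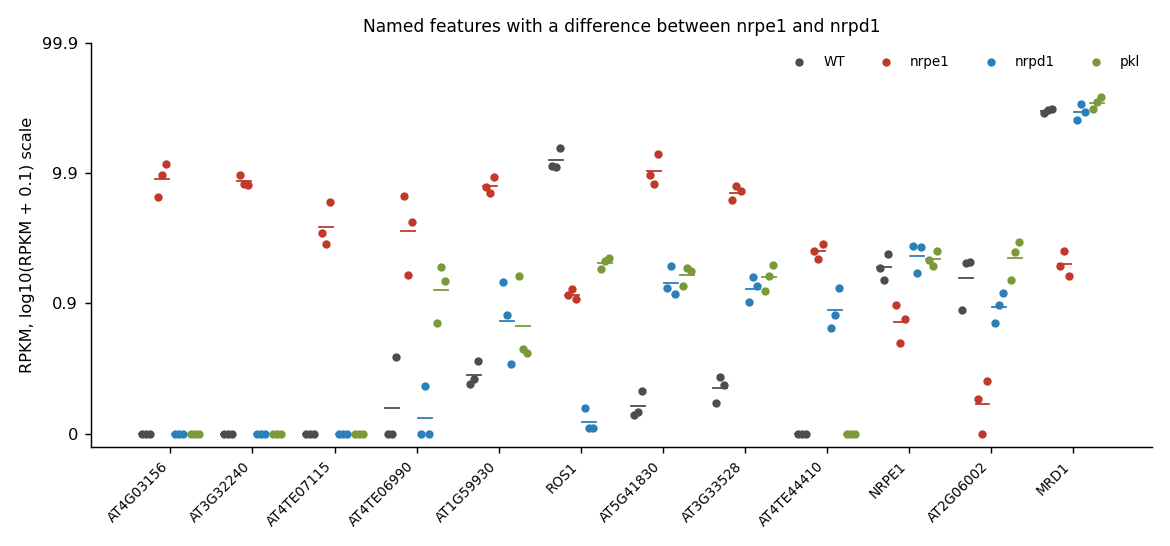
RPKM in each library of WT, nrpe1, nrpd1 and pkl, on a log10(RPKM + 0.1) scale, for the 12 named features that differed between nrpe1 and nrpd1. Points are libraries and lines are means on the plotted scale. AT4G03156, AT3G32240 and AT4TE07115 are above 0 in the nrpe1 libraries only, through which they passed the filter. MRD1 is low in the nrpe1 libraries only.

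For the other features named here the direct test did not pass the threshold. With the replicate block it did so for KELP (log2 difference 1.14, limma adjusted p = 0.0103 with the block and 0.0577 without it) and for AT1G34440 (3.38, limma adjusted p = 0.00982 with the block and 0.118 without it). The neighbors AT1G33840 and AT1G33850 had 22.8, 13.7 and 18.7 RPKM and 7.85, 7.33 and 5.19 RPKM in nrpd1, close to their nrpe1 values (log2 differences of -0.02, SE 0.48, and -0.04, SE 0.35). AT5G24240 had 11.5, 12.2 and 13 RPKM in nrpd1 (0.15, SE 0.37) and SDC had 1.65, 1.55 and 0.856 RPKM (0.26, SE 0.29). CYP702A5 had 2.38, 1.86 and 3.81 RPKM in nrpd1, all above the 3 nrpe1 libraries (-0.92, SE 0.22, limma adjusted p = 0.172). A p that missed the threshold does not show that the mutants act alike.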

How the data were processed

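Poly(A) mRNA was sequenced from seedlings of 4 genotypes with 3 libraries each, grouped by their titles. Per the study's methods and the submitters' notes, the authors sequenced stranded libraries from both ends, removed adapters and poor bases (Trim Galore 0.4.0), mapped reads to TAIR10 (Subread 1.5.1) and counted genes and TEs with featureCounts. The authors deposited RPKM values per feature and library. RPKM divides by the library total, so abundant transcripts move all other values. How reads with several positions and overlapping features were counted, and whether strand was used, is not given in the sources used here. No per-sample column was left unused.

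Whole reads, lengths and totals were recovered from the RPKM steps (100% of values whole within 0.01 reads). Reads and lengths are the smallest whole numbers that fit the steps. Library totals ran from 7204299 to 19416098 reads in the 6 libraries compared, and 1 read in 1 kb was worth 0.139 RPKM in the shallowest of them and 0.0515 RPKM in the deepest. Limma 3.58.1 (R 4.3.3) was fitted to log2(RPKM + 0.1), a scale that understates changes of low features, over all 12 libraries with a mean per genotype and an intensity trend. Features with at least 0.1 RPKM in at least 3 libraries were tested, p-values were adjusted by Benjamini-Hochberg over all features, and calls needed an adjusted p under 0.05 and at least 2-fold. All p-values are two-sided. An exact permutation test of 3 against 3 libraries cannot go below 0.1 and was not used. The series' design text calls the 3 libraries of a genotype biological replicates without naming their source, so p-values measure the spread between these libraries. This spread is pooled over all 12 libraries of a feature. A genotype at 0 reads in all its libraries has equal values on the log scale. Such values add no spread and lower the SE and p of features without reads in WT or other genotypes. Same-numbered nrpe1 and WT libraries deviated together from their group means (r = 0.563, 0.149 and 0.21). Since each was over 0.1, the numbers were taken as pairs in a further fit with the number as a block. The main fit has no block, and p-values are from it unless the block or another alternative is named. Features with an unadjusted p under 0.05 (limma) were 947 in the main fit and 2463 with the block. Replicates 2 and 3 were not told apart by these correlations, as nrpe1 replicate 3 with WT replicate 2 gave 0.229 and nrpe1 replicate 2 with WT replicate 3 gave 0.201. No source says what a number marks, and a blocked value is printed where it changed a call. The floor was 3 reads per library, and a fold against a group at 0 is a lower bound against it. Intervals and floors cover counting error only, since reads are not independent molecules.

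Named are NRPE1, ROS1, 3 study loci, the 12 features per class and direction with the largest log2 fold change among called ones with no overlap between groups, and list members past the adjusted threshold. Members and lists were chosen with earlier results of these data known. Positions, products and sequences come from TAIR10.1 (RefSeq), whose nuclear chromosomes are those of TAIR10, and copies were found with BLAST 2.17.0. Alternatives were other pseudocounts, filters and scalings, voom on recovered reads, the 6 libraries alone, the replicate block and leaving out each library. Scripts were tested on simulated data.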

Additional observations from a re-analysis of the deposited data

Results flagged for a closer look

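The following named features responded to a different extent in nrpe1 and nrpd1, each by the direct test between the 2 mutants (limma, adjusted p under 0.05 and at least 2-fold), and are given as nrpe1 minus nrpd1 on the log2 scale. More transcript was left in nrpe1 for AT4G03156 (6.50), AT3G32240 (6.43), AT4TE07115 (5.28), AT4TE06990 (4.76), AT1G59930 (3.44), ROS1 (3.23), AT5G41830 (2.85), AT3G33528 (2.45) and AT4TE44410 (1.51). Less was left for MRD1 (-3.88), AT2G06002 (-2.48) and NRPE1 (-1.71), the gene mutated in nrpe1. The differences of AT2G06002 and AT4TE44410 were lost in many of the alternatives tried. AT4G03156, AT3G32240 and AT4TE07115 passed the filter only through the nrpe1 libraries. With 3 libraries per genotype no library was tested for standing apart.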

How the results depend on the processing

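With the replicate block 48 genes were higher and 31 lower, and 44 TEs were higher and 3 lower, with 40 of 41, 18 of 18, 40 of 42 and 2 of 2 calls kept. The calls lost were those of AT1G61920 (adjusted p = 0.0519, limma), AT1TE04710 (0.0712) and AT3TE35610 (0.0567). In voom with the block the lower counts were 35 genes and 4 TEs. In the 6 libraries alone 11 genes were lower, and in these with the block 20 genes were higher, 8 lower and 13 TEs higher. A pseudocount of 1 and a filter of 1 RPKM in 3 libraries each left 23 higher TEs, and the filter, median-ratio scaling and voom each left 1 lower TE. Leaving out 1 library at a time gave 33 to 38 higher and 11 to 19 lower genes, and 34 to 44 higher and 1 to 2 lower TEs. At least 1 such fit lost the call of 9 of 41 higher and 8 of 18 lower genes, 10 of 42 higher TEs and 1 of 2 lower TEs. No called feature changed its direction against WT in any alternative in which it was tested. The cause of these changes was not tested. The difference between nrpe1 and nrpd1 has no value in fits of the 6 nrpe1 and WT libraries.

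Depth limits the low features. At most 3 reads in each WT library were found for 38 of 42 higher TEs and 21 of 41 higher genes, so their folds are bounds or carry wide intervals. The same was found for 662 of the 965 TEs and 1079 of the 22704 genes tested. Replicate 2 of nrpe1, with 7204299 reads, holds few reads of short TEs. Without nrpe1 replicate 2 the counts were 37 higher and 14 lower genes and 39 higher and 2 lower TEs.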

Other observations

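A further group of features reached the thresholds only with the replicate block, and those given here were picked after their values were seen. Among the genes were the MADS-box gene AT1G59920, whose locus number is next to that of the called MADS-box gene AT1G59930 (log2 fold change 2.23, adjusted p = 0.0416 with the block and 0.586 without it, limma), and NIC3, a nicotinamidase (1.15, adjusted p = 0.00120 with the block and 0.467 without it). Lower with the block were FRO4, a ferric reduction oxidase (-1.1, adjusted p = 0.00120), the hydroperoxide lyase gene HPL1 (-1.58, adjusted p = 0.0418) and the glycosyltransferase gene UGT84A4 (-1.12, adjusted p = 0.00652, limma).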
